A study of Rattus norvegicus with 8 samples.

Results

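AMPA and kainate receptor subunit genes were examined in rat hippocampal neuronal cultures treated with PAM, a compound that acts on NMDA receptors as a positive allosteric modulator, or with vehicle. The members are the 9 genes Gria1 to Gria4 and Grik1 to Grik5, chosen by their symbols in the authors' deposited comparison table and matched by Ensembl identifier to the count tables, in which 32623 genes are annotated. Polyadenylated RNA was sequenced from 4 PAM libraries and 4 vehicle libraries, all from wild type cultures of the SD strain on day 18 in vitro. A positive allosteric modulator strengthens the response of a receptor to its own agonists. No label names the compound, its dose or the duration of exposure. Nothing in the labels says that the libraries of a group came from separate cultures. The p-values therefore set the group difference only against the spread between these libraries, which may be technical.

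AMPA and kainate receptors are the non-NMDA ionotropic glutamate receptors: tetrameric cation channels that open within milliseconds of glutamate release. AMPA receptors, assembled from the products of Gria1 to Gria4, carry most fast excitatory transmission in the hippocampus, and their number at a synapse is altered in synaptic plasticity. The product of Gria2, once its transcript has been edited, keeps the channel nearly impermeable to calcium. Kainate receptors act before and after the synapse. The products of Grik1, Grik2 and Grik3 can form channels by themselves, whereas those of Grik4 and Grik5, the high-affinity subunits, need one of these as a partner.

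PAM libraries had lower levels of the AMPA subunit genes Gria1 and Gria4 and of the high-affinity kainate subunit genes Grik4 and Grik5, and a higher level of the kainate subunit gene Grik2. Of the 8 members with enough counts to be tested, 4 fell and 1 rose (quasi-likelihood test of edgeR over 11740 genes, threshold 0.05 after Benjamini-Hochberg adjustment). Among all tested genes 18.9% passed, 9.89% lower and 9% higher in PAM libraries. The largest fold difference among the 8 tested members was that of Grik4, at 22.2 ± 3.79 CPM in PAM libraries and 49.3 ± 3.06 CPM in vehicle libraries (CPM, counts scaled to a TMM-adjusted library of fixed size; mean ± SD, n = 4 each). The median log2 fold change of the 8 tested members was -0.47, against 0.02 for all tested genes. Among the neuronal markers described below, the median was -0.69 for pan-neuronal, -0.76 for excitatory and -0.29 for inhibitory markers. The difference of the members from these markers was not tested. Omitting single libraries left between 2 and 5 members past the test. There were 2 without vehicle 3, 3 each without vehicle 1, vehicle 4 or PAM 1, and 4 or 5 without any other library. Grik4 and Gria1 passed in every one of these fits.

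Total counts were 2960406 to 4389430 in PAM libraries and 3175404 to 3679249 in vehicle libraries, so that 3 counts corresponded to 0.64 to 1.08 CPM. A length trend was fitted in each library to the log2 level of each gene relative to that gene's own mean over the 8 libraries. Per doubling of exonic length this relative level changed by -0.0853 in PAM 3 and by -0.132 in PAM 4. In the remaining 6 libraries the change was 0.00524 to 0.0627. These slopes compare libraries with one another, so positive slopes partly mirror negative ones. They do not show how counts depend on length within a library. The members have a median exonic length of 3757 bases, against 2457 bases for all tested genes.

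**Figure D1:**
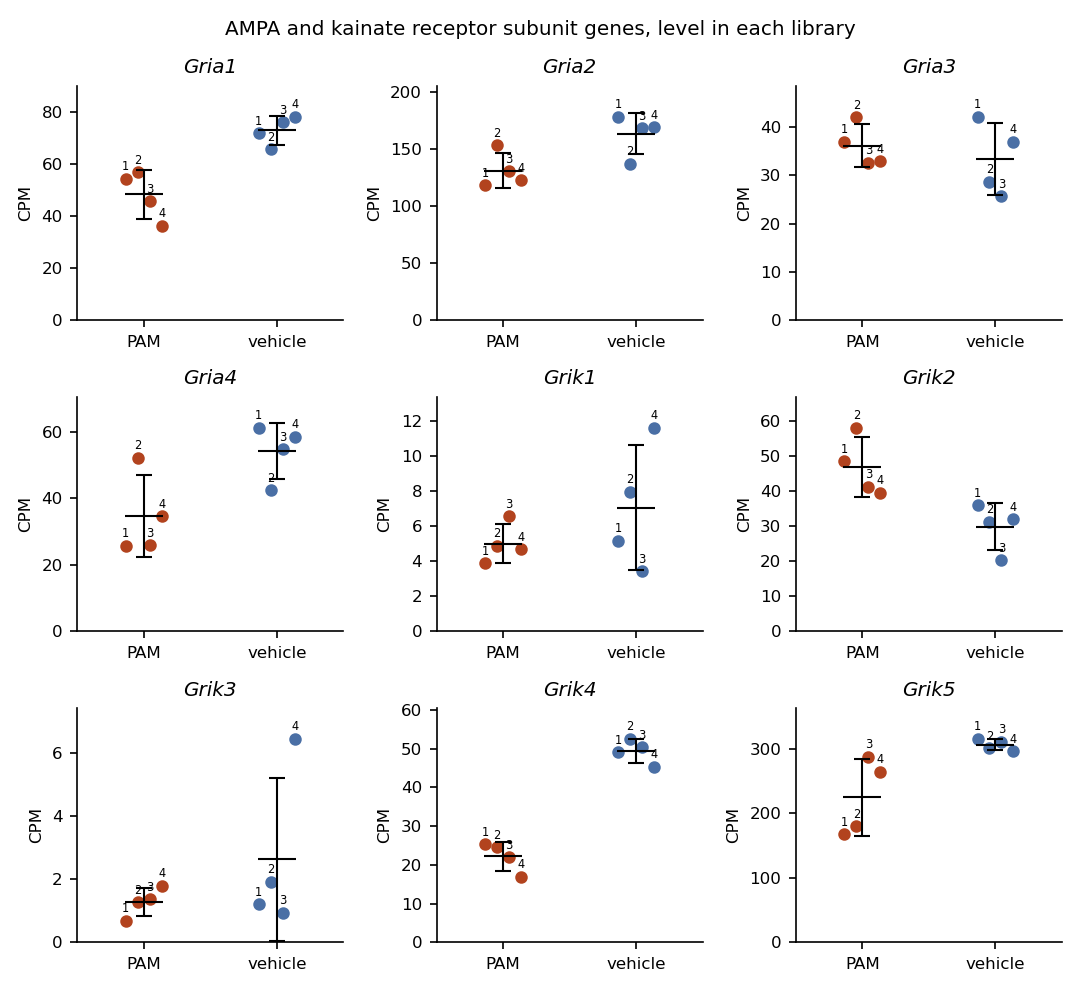
Level of each AMPA and kainate subunit gene in CPM (linear axis from 0) in the 4 PAM and 4 vehicle libraries; points are libraries with their replicate number, and the horizontal line and bars give mean and SD. The ranges do not overlap for Gria1, Grik4 and Grik5 (lower with PAM) and Grik2 (higher with PAM), and Grik5 at 168 and 180 CPM in PAM 1 and PAM 2 lies apart from 288 and 265 CPM in PAM 3 and PAM 4.

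Among the AMPA subunits, Gria1 encodes GluA1, a subunit whose delivery to synapses is a classical step of long-term potentiation in the hippocampus. Gria1 (ENSRNOG00000045816) spans bases 42614713 to 42760200 of chromosome 10, plus strand, in Rnor_6.0, and its annotated exons cover 2976 bases. Its level was 54.4, 56.9, 45.7 and 36.4 CPM in PAM 1 to 4, against 71.9, 65.8, 76.1 and 78.3 CPM in vehicle 1 to 4. Every PAM library lay below every vehicle library. CPM ranges did not overlap for 4 of the 8 tested members, against 22.3% of all tested genes. Gria1 fell by 0.58 ± 0.15 on the log2 scale (log2 fold change ± SE; adjusted p = 0.00923, edgeR with Benjamini-Hochberg), to 0.668 of the vehicle level. Without both PAM 3 and PAM 4 its log2 fold change was -0.38 (adjusted p = 0.0490, edgeR with Benjamini-Hochberg; 0.00195 to 0.0490 across the 17 alternatives).

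Gria4 encodes GluA4, a subunit with fast kinetics that is abundant in some hippocampal interneurons and early in development. Gria4 (ENSRNOG00000006957) spans bases 1548146 to 2045817 of chromosome 8, minus strand, in Rnor_6.0, with 5462 exonic bases. Its level was 25.8, 52.2, 26.0 and 34.6 CPM in PAM 1 to 4, against 61.3, 42.4, 54.8 and 58.6 CPM in vehicle 1 to 4. The groups overlapped through PAM 2, which lay above vehicle 2. Gria4 fell by 0.64 ± 0.21 on the log2 scale (adjusted p = 0.0375, edgeR with Benjamini-Hochberg). The call of Gria4 ended without PAM 1, PAM 3 or vehicle 1, 3 or 4, with adjusted p up to 0.12 by edgeR. It ended also without PAM 3 and PAM 4 together, at a log2 fold change of -0.45 (adjusted p = 0.0975, edgeR with Benjamini-Hochberg; 0.00123 to 0.12 across the 17 alternatives).

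Gria2 encodes GluA2, the subunit that sets calcium permeability, and was the AMPA subunit gene with the most counts. Gria2 (ENSRNOG00000054204) spans bases 179584308 to 179704629 of chromosome 2, minus strand, in Rnor_6.0, with 6854 exonic bases. Its level was 118, 154, 131 and 123 CPM in PAM 1 to 4, against 179, 137, 168 and 169 CPM in vehicle 1 to 4. In PAM libraries 1, 3 and 4 it was below all vehicle libraries, whereas PAM 2 lay above vehicle 2. Gria2 did not pass the test, at a log2 fold change of -0.31 ± 0.12 (adjusted p = 0.0738, edgeR with Benjamini-Hochberg). Without PAM 2 Gria2 passed, at -0.40 (adjusted p = 0.0197, edgeR with Benjamini-Hochberg; 0.0197 to 0.211 across the 17 alternatives), and with the length trend removed it was at -0.20.

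Gria3, on the X chromosome, encodes GluA3, a subunit that pairs mainly with GluA2. Gria3 (ENSRNOG00000007682) spans bases 127562660 to 127829753, plus strand, in Rnor_6.0, with 5145 exonic bases. Its level was 36.9, 42.0, 32.6 and 32.8 CPM in PAM 1 to 4, against 42.1, 28.6, 25.7 and 36.9 CPM in vehicle 1 to 4. The PAM values lay inside the vehicle range. The log2 fold change of Gria3 was 0.12 ± 0.18 (adjusted p = 0.702, edgeR with Benjamini-Hochberg). It stayed between 0.01 and 0.26 over 17 alternatives.

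Among the kainate subunits, Grik4 encodes GluK4, a high-affinity subunit known from the CA3 region and the dentate gyrus. Grik4 (ENSRNOG00000030910) spans bases 46806147 to 47094352 of chromosome 8, minus strand, in Rnor_6.0, with 3298 exonic bases. Its level was 25.4, 24.5, 21.9 and 16.9 CPM in PAM 1 to 4, against 49.1, 52.6, 50.4 and 45.3 CPM in vehicle 1 to 4. All PAM values lay far below the lowest vehicle value. Grik4 fell by 1.14 ± 0.17 on the log2 scale (adjusted p = 0.000101, edgeR with Benjamini-Hochberg), to 0.454 of the vehicle level. It ranked 206 by p among the 11740 tested genes, and its log2 fold change stayed between -1.21 and -0.97 over 17 alternatives, all of which it passed.

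Grik5 encodes GluK5, the other high-affinity subunit and the most widely expressed one. Grik5 (ENSRNOG00000020310) spans bases 81885521 to 81946714 of chromosome 1, minus strand, in Rnor_6.0, with 3757 exonic bases, and it had the highest CPM of all members. Its level was 168, 180, 288 and 265 CPM in PAM 1 to 4, against 316, 301, 312 and 297 CPM in vehicle 1 to 4. The coefficient of variation was 26.6% among PAM libraries and 2.88% among vehicle libraries. PAM 3 lay just under the vehicle range of 297 to 316 CPM, PAM 4 lay further under it, and PAM 1 and PAM 2 lay far under it. Grik5 fell by 0.45 ± 0.15 on the log2 scale (adjusted p = 0.0373, edgeR with Benjamini-Hochberg). The call of Grik5 ended without any one of the vehicle libraries, without PAM 1 or without PAM 2 (edgeR adjusted p up to 0.121), and with the length trend removed (log2 fold change -0.40, adjusted p = 0.0807, edgeR with Benjamini-Hochberg). Over 17 alternatives its adjusted p (edgeR, DESeq2 or limma) ran from 1.69e-08 to 0.121, the lowest being that without PAM 3 and PAM 4, where the log2 fold change was -0.80.

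Grik2 encodes GluK2, the main channel-forming kainate subunit of hippocampal principal cells. Grik2 (ENSRNOG00000000368) spans bases 53789760 to 54517709 of chromosome 20, minus strand, in Rnor_6.0, with 4938 exonic bases. Its level was 48.6, 58.2, 41.3 and 39.7 CPM in PAM 1 to 4, against 35.97, 31.4, 20.3 and 32.0 CPM in vehicle 1 to 4. Every PAM library was above every vehicle library. Grik2 rose by 0.65 ± 0.19 on the log2 scale (adjusted p = 0.0198, edgeR with Benjamini-Hochberg), to 1.57 times the vehicle level. Its call ended without vehicle 3 or without PAM 2 (adjusted p up to 0.076, edgeR with Benjamini-Hochberg over these fits; 0.000456 to 0.076 across the 17 alternatives).

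The remaining kainate subunit genes had the fewest counts of all members. Grik1, which encodes GluK1, a subunit prominent in interneurons, had 17, 23, 24 and 13 counts in PAM 1 to 4, against 17, 29, 11 and 36 counts in vehicle 1 to 4. The groups overlapped, and its log2 fold change of -0.49 ± 0.41 did not pass (adjusted p = 0.442, edgeR with Benjamini-Hochberg); it was at -0.15 without vehicle 4. Grik3, which encodes GluK3, had 3, 6, 5 and 5 counts in PAM 1 to 4, against 4, 7, 3 and 20 counts in vehicle 1 to 4. It did not have enough counts for the test, and most of its vehicle counts came from vehicle 4.

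**Figure D2:**
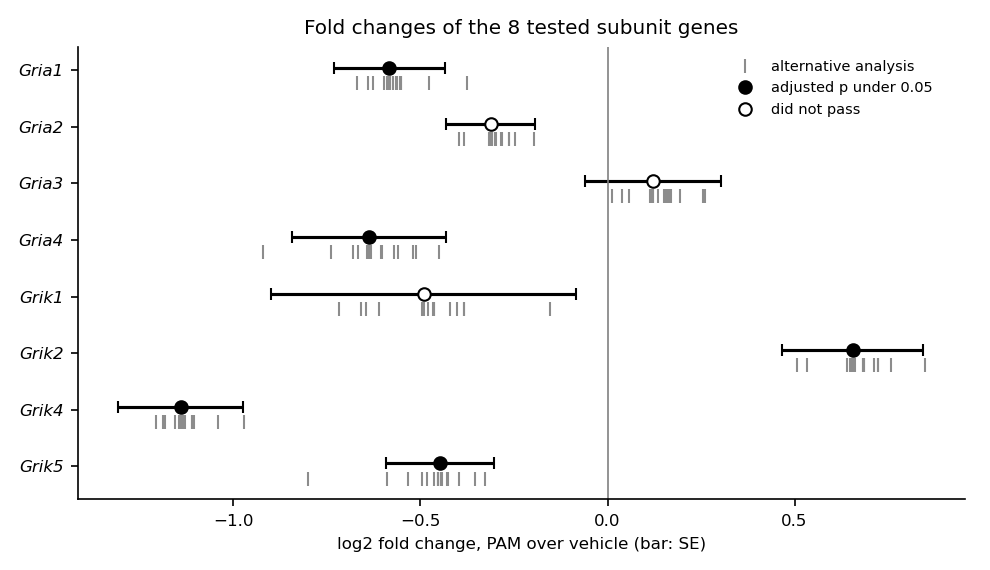
Log2 fold change of PAM over vehicle for the 8 tested subunit genes; circles with bars are the values with their SE (filled: adjusted p under 0.05), and grey ticks under each gene are 17 alternative analyses. Grik4 lies at -1.14 and Grik2 at 0.65, and no alternative changes the sign of any gene.

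In the authors' deposited table the same 5 members had an adjusted p under 0.05, with a log2 fold change of -1.14 for Grik4, -0.59 for Gria1, -0.65 for Gria4, -0.45 for Grik5 and 0.65 for Grik2. Gria2 stood in the authors' deposited table at -0.32 with an adjusted p of 0.0682. These values come from the same libraries and are no independent evidence. Of the members, 4 share a few exonic bases with another annotated gene: 29 bases in Gria2, 20 in Gria3, 19 in Gria4 and 59 in Grik4. The partner genes held 9, 0, 8 and 0 counts over all libraries.

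Levels of different genes were compared as CPM per kilobase of annotated exon. In PAM libraries the order was Grik5 (59.96 CPM per kb), Gria2 (19.2), Gria1 (16.3), Grik2 (9.51), Gria3 (7.01), Grik4 (6.73), Gria4 (6.35), Grik1 (1.63) and Grik3 (0.354). In vehicle libraries the order was Grik5 (81.6 CPM per kb), Gria1 (24.5), Gria2 (23.8), Grik4 (15.0), Gria4 (9.93), Gria3 (6.47), Grik2 (6.06), Grik1 (2.29) and Grik3 (0.726). Grik5 was first in both groups and its ranges overlapped with no other member. The ranges of Gria1 and Gria2 overlapped in both groups, and in vehicle libraries so did those of Gria4 and Gria3, of Gria3 and Grik2, and of Grik1 and Grik3. In PAM libraries Grik2 overlapped Gria3, Gria3 overlapped Grik4, and Gria4 overlapped each of Grik2, Gria3 and Grik4. Grik4 ranked 6 in PAM libraries and 4 in vehicle libraries, where it overlapped neither neighbour, whereas Grik2 ranked 4 in PAM and 7 in vehicle libraries. The exon model of Gria1 is 2.98 kb and that of Gria2 6.85 kb, and reads outside a model are not counted, so the order of genes with unequal models depends on the annotation.

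The make-up of each family was described as the share of each subunit gene in the summed CPM per kb of the family, with no test. Gria3 made up 14.4 ± 0.668% of the AMPA sum in PAM libraries and 9.96 ± 1.70% in vehicle libraries (SD, n = 4 each). Its ranges, 13.8% to 15.1% and 7.66% to 11.7%, did not overlap. The share of Gria2 was 39.5 ± 2.79% in PAM and 36.8 ± 0.933% in vehicle libraries, that of Gria1 was 33.3 ± 4.13% and 38.0 ± 2.29% in PAM and vehicle libraries, and that of Gria4 was 12.8 ± 3.09% and 15.3 ± 0.903%. For these 3 genes the ranges overlapped. The AMPA sum itself was 48.8 ± 7.23 CPM per kb in PAM libraries and 64.8 ± 6.51 CPM per kb in vehicle libraries, with ranges that overlapped.

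Among kainate subunits the share of Grik2 was 12.7 ± 4.16% in PAM libraries and 5.73 ± 1.21% in vehicle libraries, and the ranges of 8.89% to 17.0% and 3.97% to 6.72% did not overlap. Grik4 made up 8.97 ± 2.90% in PAM and 14.2 ± 0.913% in vehicle libraries, also without overlap. In every PAM library Grik2 had a larger share than Grik4, and in every vehicle library Grik4 had the larger share. Grik5 held 75.8 ± 6.97% in PAM and 77.3 ± 2.05% in vehicle libraries, but the PAM libraries were split. Its share was 70.2% and 69.4% in PAM 1 and PAM 2, below the vehicle range of 75.4% to 80.0%. It was 81.4% and 82.3% in PAM 3 and PAM 4, above that range. The shares of Grik2 and Grik4 were larger in PAM 1 and PAM 2 than in PAM 3 and PAM 4. The kainate sum was 78.2 ± 14.2 CPM per kb in PAM libraries and 106 ± 1.97 CPM per kb in vehicle libraries, with ranges of 63.7 to 94.2 and 104 to 108 that did not overlap. A share also moves when other members of the sum change.

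**Figure D3:**
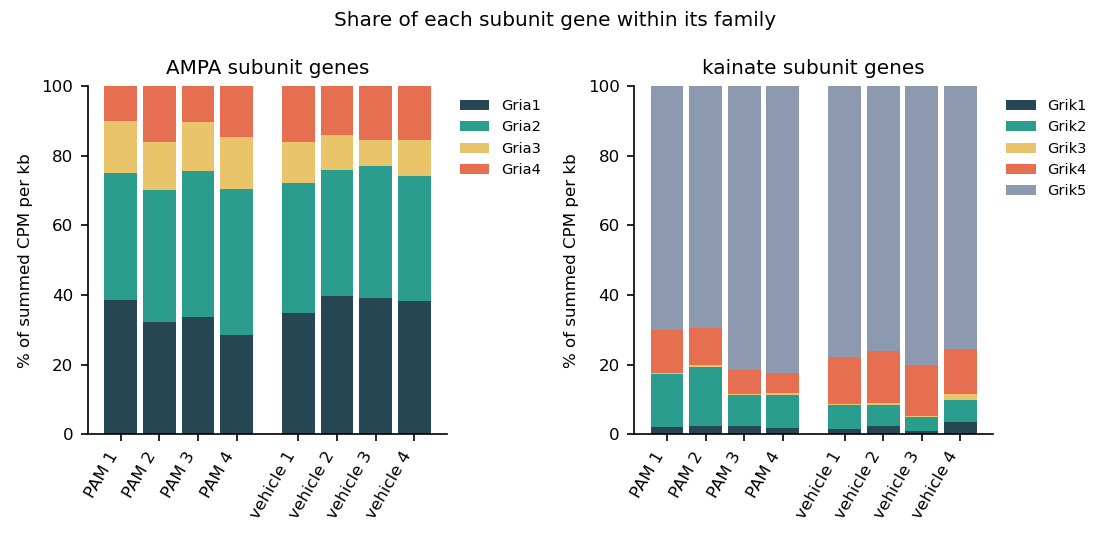
Stacked bars of the share of each subunit gene in the summed CPM per kb of the AMPA (left) and kainate (right) families, in percent, for PAM 1 to 4 and vehicle 1 to 4. Gria3 holds 13.8% to 15.1% of the AMPA sum in PAM libraries and 7.66% to 11.7% in vehicle libraries, and Grik2 holds 8.89% to 17.0% and 3.97% to 6.72% of the kainate sum in PAM and vehicle libraries.

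Cell type markers moved between the groups as well. The 4 pan-neuronal markers Rbfox3, Tubb3, Syt1 and Map2 summed to 1303 to 1588 CPM in PAM libraries and 1887 to 2200 CPM in vehicle libraries, with 3 of the 4 lower in PAM. The excitatory markers summed to 741 to 910 CPM in PAM and 1243 to 1463 CPM in vehicle libraries (3 of 4 tested lower, none higher), and the inhibitory markers to 1038 to 1585 CPM and 1444 to 1640 CPM in PAM and vehicle libraries (1 of 5 lower, 1 higher). Of the inhibitory markers 3 were lower without PAM 4, alone or together with PAM 3, and 2 without PAM 2 or with the length trend removed, whereas 2 excitatory markers were lower without vehicle 2 or vehicle 4. The astrocyte markers summed to 6241 to 7721 CPM in PAM and 4296 to 4549 CPM in vehicle libraries (3 of 5 higher), the oligodendrocyte markers to 370 to 673 CPM and 186 to 237 CPM (3 of 5 higher), and the ependymal markers to 101 to 164 CPM and 29.4 to 45.7 CPM (4 of 4 higher). The oligodendrocyte precursor markers summed to 914 to 1039 CPM in PAM and 706 to 806 CPM in vehicle libraries (1 of 4 higher, 1 lower). The lower one did not pass without vehicle 1 or 2, without PAM 1 or PAM 3, or without both PAM 3 and PAM 4. Of the microglial markers, Aif1 and Csf1r together had 1.64 to 4.38 CPM in PAM and 1.38 to 6.89 CPM in vehicle libraries and were not tested, and the endothelial marker Kdr, which passed the test, had 11.99 to 22.6 CPM in PAM and 5.64 to 11.3 CPM in vehicle libraries. The call of Kdr ended without vehicle 2, vehicle 3 or PAM 2. The neuronal and astrocyte markers were thus both abundant in these cultures, and no matched marker was at 0 in all libraries. In bulk RNA, fewer cells of a type and less RNA per cell cannot be told apart, and the part of these markers in the subunit results was not tested.

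Set over the summed pan-neuronal markers of the same library, a quantity chosen after the values were seen, Grik4 had 15.4 ± 3.33 CPM per 1000 CPM of markers in PAM libraries and 24.0 ± 2.69 in vehicle libraries. The ranges of 11.3 to 19.5 and 20.6 to 26.3 did not overlap. On the same scale Grik2 had 32.5 ± 5.38 in PAM and 14.7 ± 4.03 in vehicle libraries, again without overlap. The ranges overlapped on this scale for Gria1, at 33.6 ± 7.29 in PAM and 35.4 ± 2.14 in vehicle libraries. They overlapped also for Gria4, at 23.6 ± 6.51 and 26.4 ± 4.66, and for Grik5, at 156 ± 42.2 and 149 ± 13.9. The PAM range of Grik5, 114 to 205, reached past its vehicle range of 135 to 168 on both sides, so the near-equal means hide a wide spread. Gria2 had 90.6 ± 6.23 CPM per 1000 CPM of markers in PAM and 79.4 ± 10.9 in vehicle libraries, and Gria3 had 25.0 ± 2.95 and 16.3 ± 4.48, both with overlap.

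Among genes of proteins that work with these receptors, those that passed the test were lower in PAM libraries, with 1 exception. Of 91 such genes on 7 lists, 85 were tested, of which 28 fell and 1 rose, and their median was -0.37 on the log2 scale. Without both PAM 3 and PAM 4 the numbers were 32 and 2 of 87, and the median was -0.25. Over the alternatives the number that fell ran from 22 of 86 without vehicle 2 to 34 of 86 without PAM 2. It was 23 without vehicle 4, and 25 without vehicle 1, without PAM 1 or with the length trend removed. Among all 11740 tested genes 9.89% were lower and 9% higher in PAM libraries, with a median of 0.02. The medians of the neuronal markers were -0.69 (pan-neuronal), -0.76 (excitatory) and -0.29 (inhibitory). The counts of each list are to be read against these shares. The lists were chosen with earlier results of these data known, so this comparison is a description and no test of a list. Of the genes past the test on each list, those with the smallest p are named, and genes named outside this rule are marked. Of the 7 other ionotropic glutamate receptor genes tested, 2 fell and 1 rose. The number that fell was 1 without vehicle 2, 3 or 4, without PAM 1 or PAM 2, and with the length trend removed.

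Of the 15 tested genes of AMPA receptor auxiliary and assembly proteins, 6 fell and 0 rose, with a median of -0.55. Cacng8, which encodes the hippocampal TARP gamma-8 that anchors AMPA receptors at synapses, was at 36.6 ± 7.16 CPM in PAM and 66.7 ± 13.1 CPM in vehicle libraries. Cacng7, a related TARP gene, fell by 0.65 ± 0.13 on the log2 scale, Shisa7, another auxiliary subunit gene, by 0.65 ± 0.13, and Porcn, whose product acts on AMPA receptor complexes in the endoplasmic reticulum, by 0.69 ± 0.13. The kainate receptor auxiliary and partner genes Neto1, Neto2, C1ql2, C1ql3 and Klhl17 did not pass the test, with 0 of 5 called. Their median was 0.07, and its sign and size varied with the libraries used. It was -0.02 without vehicle 1 or with the length trend removed, 0.11 without vehicle 4, 0.13 without PAM 1 or PAM 3, 0.18 without vehicle 3 and 0.20 without both PAM 3 and PAM 4. The shifts on this list went both ways, with a log2 fold change of -0.46 for Klhl17 and 0.40 for C1ql3 (adjusted p = 0.166 and 0.195, edgeR with Benjamini-Hochberg). Neto1, an auxiliary subunit gene of kainate receptors, was at 35.99 ± 3.52 CPM in PAM and 32.8 ± 6.09 CPM in vehicle libraries. These 3 genes are named outside the rule, since none passed the test.

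Of 24 anchoring and trafficking genes, 10 fell and 1 rose, with a median of -0.40. Dlg4, which encodes the scaffold PSD-95, was at 386 ± 26.0 CPM in PAM and 605 ± 62.7 CPM in vehicle libraries. Dlg3, a related scaffold gene, fell by 0.67 ± 0.13, and the kinesin gene Kif5a, which carries AMPA receptors along dendrites, by 0.64 ± 0.10 on the log2 scale. Arc, which promotes the endocytosis of AMPA receptors, was at 18.2 ± 1.31 CPM in PAM and 51.3 ± 11.5 CPM in vehicle libraries, also past the test. The gene that rose was Myo6, an endocytic myosin, at 79.0 ± 10.5 CPM in PAM and 53.2 ± 3.01 CPM in vehicle libraries; it was chosen after its value was seen.

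Of 12 extracellular and adhesion partners, 4 fell and 0 rose, with a median of -0.25 that was 0.01 without both PAM 3 and PAM 4, -0.11 without vehicle 1 and -0.10 without PAM 4. Those that fell were Nptx1, a secreted pentraxin that binds AMPA receptors, at 108 ± 3.92 CPM in PAM and 276 ± 21.6 CPM in vehicle libraries, the pentraxin receptor gene Nptxr, at 752 ± 62.0 and 1077 ± 73.8 CPM in PAM and vehicle libraries, and the olfactomedin genes Olfm2 (log2 fold change -0.87 ± 0.13) and Olfm1 (-0.40 ± 0.10). All 4 passed in every alternative.

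Of 16 kinases and phosphatases of AMPA receptor subunits, 6 fell and 0 rose, with a median of -0.30. Among them Camk2b, a subunit gene of the kinase CaMKII, was at 496 ± 18.1 CPM in PAM and 699 ± 31.4 CPM in vehicle libraries. Prkaca, the catalytic subunit gene of protein kinase A, fell by 0.52 ± 0.11, and the protein kinase C gene Prkcb by 0.57 ± 0.15 (log2 scale). Among RNA editing genes, 1 of 4 tested fell: Adarb1, whose enzyme edits the calcium-permeability site of Gria2 transcripts, was at 31.9 ± 4.23 CPM in PAM and 49.97 ± 3.01 CPM in vehicle libraries (log2 fold change -0.64 ± 0.15; adjusted p = 0.00635, edgeR with Benjamini-Hochberg). Without PAM 2, 2 of the editing genes fell. Gene counts carry no information on editing itself. Of the ubiquitination genes 1 of 9 fell, the ubiquitin ligase activator gene Fzr1 (-0.52 ± 0.14), and this call ended without vehicle 2 or vehicle 4 (adjusted p up to 0.0559, edgeR with Benjamini-Hochberg; 0.00299 to 0.0559 across the 17 alternatives). Without PAM 2, 2 ubiquitination genes fell, and without both PAM 3 and PAM 4 there were 1 lower and 1 higher. With all libraries, 1 of 9 is close to the 9.89% of all tested genes that were lower.

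**Figure D4:**
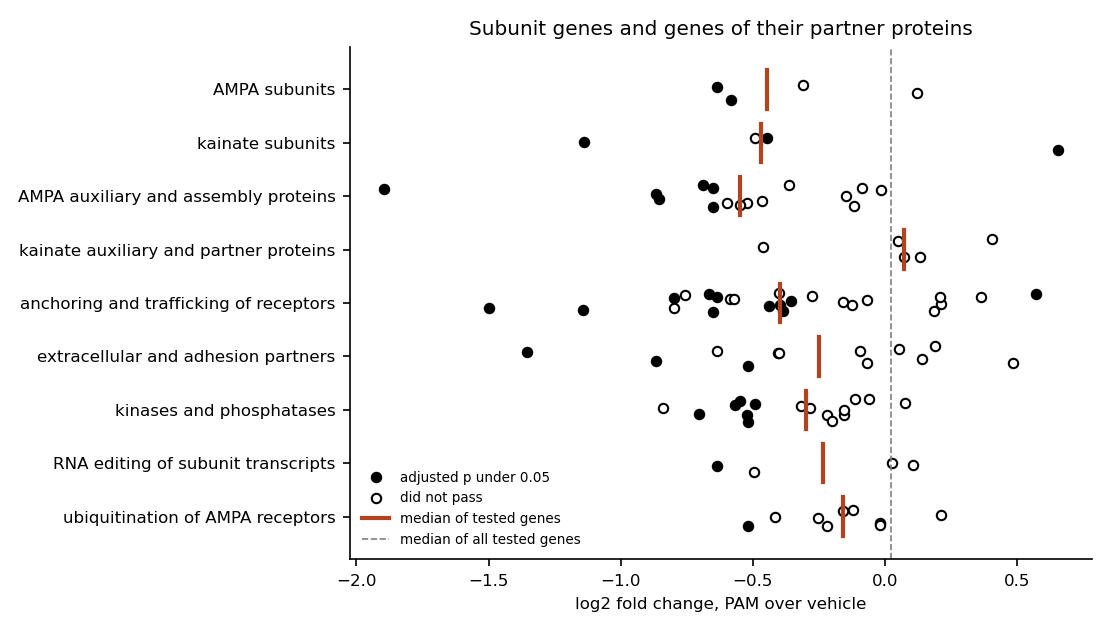
Log2 fold change of PAM over vehicle for the tested subunit genes and the tested genes of 7 partner lists (filled: adjusted p under 0.05; red bar: median of the tested genes of a list; dashed line: median of all tested genes, 0.02). Medians lie between -0.55 for AMPA receptor auxiliary proteins and 0.07 for kainate receptor auxiliary and partner proteins.

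The start regions of the called members are shown as the sequence in which regulatory motifs would be looked for first. RefSeq windows (assembly GRCr8, 250 bases before to 50 after the start) were at hand for 6 members, Gria4 and Grik1 to Grik5, of which 4 are called. Capitals mark matches on either strand to the GC box GGGCGG, the cAMP response element half-site TGACG, the AP-1 site TGANTCA and the E-box CANNTG, and matches may overlap. Coordinates are those of the window in GRCr8, and each sequence runs along the minus strand, the strand of these 4 genes.
Grik4 (chr8:52102014-52102313): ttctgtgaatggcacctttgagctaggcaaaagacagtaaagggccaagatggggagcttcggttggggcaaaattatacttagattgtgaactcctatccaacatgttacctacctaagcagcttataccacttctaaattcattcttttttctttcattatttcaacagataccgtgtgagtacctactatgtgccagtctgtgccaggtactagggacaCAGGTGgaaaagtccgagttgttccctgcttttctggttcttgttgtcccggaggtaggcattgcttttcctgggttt
Gria4 (chr8:10319832-10320131): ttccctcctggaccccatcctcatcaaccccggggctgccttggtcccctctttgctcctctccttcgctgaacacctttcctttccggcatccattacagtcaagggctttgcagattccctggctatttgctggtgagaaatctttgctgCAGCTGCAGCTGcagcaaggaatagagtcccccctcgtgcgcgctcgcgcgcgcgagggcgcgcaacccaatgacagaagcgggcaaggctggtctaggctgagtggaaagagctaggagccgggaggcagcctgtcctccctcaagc
Grik5 (chr1:89794860-89795159): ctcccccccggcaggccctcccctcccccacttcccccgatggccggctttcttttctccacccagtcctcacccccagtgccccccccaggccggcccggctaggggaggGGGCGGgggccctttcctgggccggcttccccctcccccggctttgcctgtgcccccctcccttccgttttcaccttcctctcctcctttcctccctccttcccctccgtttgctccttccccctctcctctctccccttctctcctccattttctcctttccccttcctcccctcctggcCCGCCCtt
Grik2 (chr20:54415234-54415533): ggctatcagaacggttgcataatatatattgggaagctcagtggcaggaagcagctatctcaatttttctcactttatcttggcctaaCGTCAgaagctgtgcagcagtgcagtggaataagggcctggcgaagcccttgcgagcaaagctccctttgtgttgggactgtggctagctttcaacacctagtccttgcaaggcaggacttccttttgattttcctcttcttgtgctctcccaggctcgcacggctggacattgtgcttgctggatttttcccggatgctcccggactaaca

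The window of Grik2, the gene that rose, held 1 half-site of the cAMP response element, read on the opposite strand, a motif found in 21.2% of 33469 RefSeq windows of this length. Of the genes that fell, Grik5 had 2 GC boxes, which 33.1% of windows hold, at a GC content of 69.0%. Gria4 had 2 adjoining E-boxes and Grik4 had 1, a motif found in 72.1% of windows. No AP-1 site, present in 7.33% of windows, was found in any of the 4. The Grik4 window has a GC content of 44.0%, and its start lies 126.7 kb inside the outermost end of the RefSeq gene, so other starts of Grik4 are not covered. A match is a description of letters and not a bound site, and the absence of a match covers only this window.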

How the data were processed

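For 4 PAM and 4 vehicle libraries of polyadenylated RNA, values were deposited as raw counts per gene, made by the authors with STAR and featureCounts on Rnor_6.0, per the submitters' processing notes (versions not given in the sources used here). The authors' deposited comparison table holds normalised count signal as group means, log2 fold changes and p-values from DESeq2, per the file headers. It was used for symbols and for the values credited to it.

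Genes passing edgeR's filterByExpr (11740 of 32623) were TMM-scaled and fitted with edgeR 4.0.16 (R 4.3.3; glmQLFit, robust; log2 fold change of PAM over vehicle), with Benjamini-Hochberg adjustment over all of them and a threshold of 0.05. Grik3 did not pass this filter. The SE is the absolute log2 fold change over the square root of F. Alternatives were DESeq2 1.42.0, limma 3.58.1 (voom), other scalings and filters, a replicate block, leaving out each library, removing the length trend, and leaving out both PAM 3 and PAM 4. Members and lists were chosen with earlier results of these data known. On each partner list, the genes named are up to 4 of those past the threshold, by smallest p; 1 gene named by this rule is not reported here. Of 151 listed genes 140 were matched, and Gsg1l, Shisa9, Rab5a, Lrrtm1, Snap25, Cx3cr1, P2ry12, Foxj1, Pecam1, Cldn5 and Flt1 were not analysed here. The fit was tested on simulated data.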

Additional observations from a re-analysis of the deposited data

How the results depend on the processing

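No alternative reversed the direction of a member. The number of members past the threshold, 5 of 8, ranged from 2 to 5 over the fits that left out 1 library, was 5 with DESeq2, limma-voom, other scalings and other low-count filters, and was 4 with the length trend removed and 4 without both PAM 3 and PAM 4. All-gene calls, 2218, ranged from 1527 to 2900 over the alternatives. Gria1 and Grik4 passed in all 17 alternatives, Grik2 in 15, Gria4 in 11, Grik5 in 10 and Gria2 in 1. The cause of the lost calls was not tested. Same-numbered PAM and vehicle libraries did not deviate together (correlations of -0.0595 to 0.0676 over 4 pairs), so the numbers were not taken as pairs; with the replicate block 5 members and 2064 genes passed. Without division by length, Gria1 made up 19.3% of the AMPA sum in PAM and 22.6% in vehicle libraries, Gria2 52.6% and 50.4%, and Gria4 13.6% and 16.7%. Precision was lowest for Grik1 among the tested members (SE 0.41), which had 11 to 36 counts per library, and Grik3, with 3 to 20, was not tested.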

Other observations

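Genes with the profile most like that of a called member over the 8 libraries were found by the root mean square difference of centred log2(CPM + 0.5) values among 10403 genes with a mean of at least 5 CPM. For Gria1 the nearest were Ankrd52, Schip1 and Gopc, at differences of 0.0493, 0.0851 and 0.0889, against a median of 0.454 over all candidates. For Gria4 they were Zmym2, Tmeff1 and Ppp3ca, at 0.157, 0.166 and 0.192 (median 0.547). Grik2 had Lrp4, Prdm16 and Tpp1 nearest, at 0.0823, 0.0887 and 0.108 (median 0.510). Grik4 had Gprin1, Cyfip2 and Scn2a nearest, at 0.0885, 0.119 and 0.123 (median 0.655). Grik5 had Tmem59l, Actl6b and Carmil2 nearest, at 0.0606, 0.0679 and 0.0763 (median 0.448). The libraries fall into 2 groups, so a shared group difference enters each likeness.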
